A study of Homo sapiens with 60 samples.

Results

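The lysosome and autophagy genes described here were 39 genes taken from a fixed list by symbol. They code for 5 lysosomal membrane proteins, 8 proteases, 10 glycosidases, 6 lipid and sulfate hydrolases, 5 parts of the proton pump, 3 autophagy adaptors and 2 transcription factors. All 39 were found among the 60675 genes of the table, and all 39 passed the filter on low counts, which left 16167 genes to test. They were measured in HepG2 cells, a line from a human hepatocellular carcinoma, exposed for 24 h to hot water extracts of herbs or of herbal formulas used in Korean medicine. The groups were Cinnamomi Cortex (cinnamon bark), Astragali Radix, Cnidii Rhizoma, Rehmanniae Radix Preparata and the formulas Samul-tang and Sagunja-tang, each at 20, 100 and 500 µg/mL with 3 libraries a dose. The formula Palmul-tang had 1 library at each of these doses, and the vehicle group had 3 libraries. The vehicle was 0.1% DMSO by the sample labels and 2% by the design text. The labels do not say whether the 3 libraries of a group came from separate cultures. The p-values set each difference against a spread between libraries of a group, estimated over all 57 replicated libraries together. That spread may be technical.

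The lysosome is an acidic compartment that breaks down proteins, sugars and lipids brought to it by endocytosis or by autophagy, in which a double membrane closes around cytoplasm and fuses with the lysosome. A proton pump in its membrane, the V-ATPase, acidifies it. The transcription factors TFEB and TFE3 are held in the cytoplasm while the kinase mTORC1 is active at the lysosomal surface, and otherwise enter the nucleus and bind short elements built on CACGTG in the promoters of many lysosomal and autophagy genes. Liver cells use this system to recycle cell contents in fasting, and SQSTM1 (p62) protein builds up in hepatocytes when autophagy is blocked.

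Library totals ranged between 16484546 and 34412234 counts. Levels are given as CPM, read counts scaled to a common library size, with TMM factors for composition. All sample titles carry the mark BatchB. The leading number of the sample codes is called the set here, and the labels do not say what it marks. Vehicle has a code of its own, so the treatment and any difference between sets cannot be told apart in contrasts with vehicle. Contrasts between doses of 1 extract, or between extracts with the same number, stay within 1 set. Hepatocyte markers were high in these cells: ALB, serum albumin, averaged 11800 ± 598 CPM in Cinnamomi Cortex at 500 µg/mL (SD, n = 3). Summed over 8 hepatocyte markers, the group means were 53200 CPM at that dose and 44300 CPM in vehicle. The 8 did not move together: 5 were called higher than in vehicle, APOB and FGB were called lower, and ALB was not called. Of 11 markers of other cell types, PTPRC and COL1A2, which mark leukocytes and fibroblasts, were at 0 in both groups, 2 were called higher and 3 lower. Their summed group means were 3240 CPM in Cinnamomi Cortex at 500 µg/mL and 1300 CPM in vehicle, of which all but 75.3 and 77.4 CPM came from LYZ, the lysozyme gene. The proliferation marker MKI67 averaged 81 ± 5.25 CPM at 500 µg/mL of Cinnamomi Cortex and 363 ± 14.4 CPM in vehicle (SD, n = 3 each). Mitochondrial transcripts held 21.9%, 22.3% and 19.4% of counts in those extract libraries and 14.6%, 14.4% and 16.7% in the vehicle libraries. Such shares were not particular to that group. They were 22.6%, 16.0% and 17.2% in Cnidii Rhizoma and 20.4%, 16.9% and 15.2% in Rehmanniae Radix Preparata at 500 µg/mL. In Cinnamomi Cortex at 100 µg/mL they were 18.9%, 19.7% and 17.7%. The part of these values in the results that follow was not tested, and in bulk RNA a change in the number of cells of a kind and a change in RNA per cell cannot be told apart.

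Promoter windows from RefSeq (GRCh38.p14, 250 bases before to 50 bases after the start of the gene) matched 28 of the 39 genes. They are shown because CACGTG is the core that TFEB and TFE3 recognise. LAMP2, CTSB, HEXA, NAGLU, MANBA, PSAP, ASAH1, SGSH, ATP6V1A, ATP6V1B2 and ATP6V1H had no entry. CACGTG, which reads the same on both strands, was in 7 of the 28 windows (25.0%), in 24 of 118 windows of other lysosome and autophagy genes (20.3%) and in 7.43% of all 27305 windows. The longer TCACGTGA, which contains it, was in 4 of the 28 (14.3%) and in 1.04% of all windows. LAMP1, which codes for the most abundant glycoprotein of the lysosomal membrane, had 6 CACGTG runs, of which 5 lie in the 250 bases before its start at chr13:113296989-113297238 on the plus strand. MCOLN1, which codes for the calcium release channel mucolipin-1, had 2 in the 250 bases at chr19:7522374-7522623 on the plus strand. Both are printed 5′ to 3′ with the CACGTG runs in capitals.
LAMP1: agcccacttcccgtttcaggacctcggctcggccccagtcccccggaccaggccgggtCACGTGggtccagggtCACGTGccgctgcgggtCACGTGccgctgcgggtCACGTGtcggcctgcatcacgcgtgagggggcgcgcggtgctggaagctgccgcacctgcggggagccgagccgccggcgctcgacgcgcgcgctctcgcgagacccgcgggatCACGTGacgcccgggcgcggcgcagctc
MCOLN1: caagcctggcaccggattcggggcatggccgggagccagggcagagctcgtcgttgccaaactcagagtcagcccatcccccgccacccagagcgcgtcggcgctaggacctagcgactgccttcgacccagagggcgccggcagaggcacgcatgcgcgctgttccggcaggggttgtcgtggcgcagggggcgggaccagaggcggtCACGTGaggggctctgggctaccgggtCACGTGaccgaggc
The runs in 5 other promoters are printed in the same way, on the strand of the gene, with 7 bases on each side. CTSA, the carboxypeptidase that protects NEU1, had 2, at chr20:45891286-45891305 and chr20:45891303-45891322. CTSD, the aspartic protease cathepsin D, had 1 at chr11:1763962-1763981 on the minus strand. NEU1, the sialidase, had 1 at chr6:31862935-31862954, CD63 had 1 at chr12:55729177-55729196 and ATP6V0D1 had 1 at chr16:67481204-67481223, all on the minus strand.
CTSA, first: agactgtCACGTGgcgccgg
CTSA, second: cggagttCACGTGactcgta
CTSD: ccgcgccCACGTGaccggtc
NEU1: gcgtgatCACGTGggaggag
CD63: taggggcCACGTGgccctgg
ATP6V0D1: ttatggtCACGTGaggcgct
The windows of SQSTM1, MAP1LC3B and GABARAPL1 held no CACGTG, which says only that these letters are not in these windows.

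In cells exposed to Cinnamomi Cortex at 500 µg/mL, 33 of the 39 genes rose and 1 fell relative to vehicle, and 5 did not pass the test (edgeR's quasi-likelihood test, Benjamini-Hochberg adjusted p under 0.05). That is 84.6% of the list higher and 2.56% lower, while over all 16167 genes 31.1% were called higher and 31.6% lower. The median log2 fold change was 0.52 over the 39 genes and -0.019 over all genes. The genes that rose included all 5 membrane proteins, 7 of 8 proteases, 9 of 10 glycosidases, 4 of 6 lipid and sulfate hydrolases, 4 of 5 proton pump genes and all 3 autophagy adaptors. Of the transcription factors, TFE3 rose and TFEB fell. Summed over the list, expression was 7394, 7368 and 7516 CPM in Cinnamomi Cortex at 500 µg/mL and 4465, 4455 and 4415 CPM in vehicle. For 29 of the 39 genes, the 3 libraries at that dose were above all 54 other replicated libraries of the study, as was so for 19.7% of all genes. They were below all 54 for 0 of the 39 genes and for 18.8% of all genes. The 10 exceptions were MCOLN1, CTSC, CTSH, GLA, GUSB, FUCA1, PPT1, SGSH, ATP6V1B2 and TFEB. Set against the vehicle libraries alone, 33 of the 39 genes lay above all 3, 1 lay below and 5 overlapped. Over all genes 33.2% lay above and 34% below, and groups said below not to overlap are to be read beside these shares.

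Scaling moved these counts. The main values use TMM factors, which were 0.834 to 0.863 in the 3 Cinnamomi Cortex libraries at 500 µg/mL. With library totals alone, a choice made after seeing the data, the median of all genes moved to -0.299, with 16.1% of genes called higher and 50.4% lower. On that scale 22 of the 39 genes were called higher and 7 lower, and their median was 0.24, which is still above that of all genes. TMM and the size factors of DESeq2 gave the same counts, 33 higher and 1 lower.

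The autophagy adaptors had the highest median change of any role, 1.68 on the log2 scale. SQSTM1 (ENSG00000161011, chr5:179806398-179838078 on the plus strand, GRCh38) codes for p62, the receptor that carries ubiquitin-tagged cargo into autophagosomes. It measured 767, 809 and 841 CPM in Cinnamomi Cortex at 500 µg/mL and 175, 177 and 168 CPM in vehicle. The groups do not overlap, and the gene was 4.65-fold higher (log2 2.22 ± 0.046 SE, edgeR adjusted p = 1.87e-37). It ranked 1 of 16167 genes by p-value in this comparison and 320 by size of change. GABARAPL1 (chr12:10212458-10223130, plus strand), an ATG8-family protein that is attached to the autophagosome membrane, measured 38, 37.3 and 35.8 CPM with the extract and 11.5, 11.3 and 11.9 CPM in vehicle. That is 3.2-fold higher (log2 1.68 ± 0.069, edgeR adjusted p = 2.96e-26). MAP1LC3B (chr16:87383995-87404779, plus strand), which codes for the autophagosome marker LC3B, measured 211, 206 and 205 CPM with the extract and 77.1, 82.1 and 78.5 CPM in vehicle, 2.62-fold higher (log2 1.39 ± 0.046, edgeR adjusted p = 1.27e-29). Reads of MAP1LC3B could be shared with its near copy MAP1LC3B2, whose own level was low, at 0.595 CPM with the extract and 0.266 CPM in vehicle. All 3 adaptors were also called higher with library totals alone.

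The 5 membrane proteins rose. CD63, a tetraspanin of late endosomes and lysosomes, measured 242, 250 and 275 CPM in Cinnamomi Cortex at 500 µg/mL and 102, 107 and 107 CPM in vehicle (log2 1.28 ± 0.07, edgeR adjusted p = 2.28e-21). SCARB2, a receptor of the lysosomal membrane also called LIMP-2, measured 128, 121 and 130 CPM with the extract and 78.2, 75.9 and 78.3 CPM in vehicle (log2 0.71 ± 0.051, edgeR adjusted p = 4.93e-17). LAMP1 was at 339, 343 and 343 CPM with the extract and at 213, 235 and 221 CPM in vehicle (log2 0.61 ± 0.055, edgeR adjusted p = 6.87e-14). None of these groups overlapped. LAMP2, the partner of LAMP1 that is needed for fusion of autophagosomes with lysosomes, changed by 0.52 ± 0.043 on the log2 scale. MCOLN1 changed least of the 5, with 12.7, 12.7 and 13.1 CPM with the extract and 10.5, 10.2 and 9.39 CPM in vehicle (log2 0.35 ± 0.11, edgeR adjusted p = 0.00469). On library totals alone, 4 of the 5 were called higher.

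Of the 8 proteases, which cut proteins in the acid of the lysosome, 7 were called higher. CTSB, the cysteine protease cathepsin B, measured 547, 554 and 592 CPM in Cinnamomi Cortex at 500 µg/mL and 224, 250 and 240 CPM in vehicle (log2 1.25 ± 0.05, edgeR adjusted p = 9.8e-27). CTSD measured 734, 773 and 731 CPM with the extract and 381, 403 and 385 CPM in vehicle (log2 0.94 ± 0.068, edgeR adjusted p = 6.33e-17). CTSL, a second cysteine protease, averaged 96.9 ± 8.41 CPM with the extract and 55.6 ± 0.962 CPM in vehicle (SD, n = 3 each; log2 0.80 ± 0.062). TPP1, which trims peptides from their amino end, and CTSA rose by 0.43 ± 0.061 and 0.38 ± 0.056 on the log2 scale. CTSZ, a carboxypeptidase, had a log2 change of 1.79 ± 0.47 (edgeR adjusted p = 0.000845) but a very low level, with 0.615, 0.689 and 0.715 CPM with the extract and 0.192, 0.0993 and 0.29 CPM in vehicle. CTSH, an aminopeptidase, was called higher by 0.12 ± 0.046 on the log2 scale with TMM but lower by -0.16 with library totals alone. Its call was lost in 3 of the 14 other settings. Among them were the fits without vehicle replicate 3 or Cinnamomi Cortex 500 µg/mL replicate 2 (log2 0.09 in both). CTSC, the dipeptidyl peptidase that activates granule proteases, was at 119, 117 and 114 CPM with the extract and 120, 118 and 118 CPM in vehicle, and was not called. Scaled by library totals alone, 5 of the 8 proteases were called higher and 2 lower.

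Of the glycosidases, which cut sugar chains from glycoproteins and glycolipids, 9 of 10 were called higher with a median of 0.38 on the log2 scale. NEU1, which removes sialic acid, measured 600, 567 and 576 CPM in Cinnamomi Cortex at 500 µg/mL and 379, 359 and 346 CPM in vehicle (log2 0.68 ± 0.049, edgeR adjusted p = 3.42e-17). HEXA, a hexosaminidase, averaged 130 ± 4.39 CPM with the extract and 79.7 ± 1.89 CPM in vehicle (SD, n = 3 each; log2 0.70 ± 0.049). Neither pair of groups overlapped. The mannosidases MANBA and MAN2B1 changed by 0.41 and 0.38, the galactosidases GLB1 and GLA by 0.41 and 0.38, the fucosidase FUCA2 by 0.37 and the heparan sulfate enzyme NAGLU by 0.33 on the log2 scale. GUSB, the beta-glucuronidase, was called at 0.16 ± 0.063 with TMM and was -0.12 with library totals alone. Its call was lost in 5 of the 14 settings other than library totals. Among them were the fits without vehicle replicate 1, vehicle replicate 3 or Cinnamomi Cortex 500 µg/mL replicate 1. GUSB shares sequence with pseudogenes, of which GUSBP1 was at 2.09 CPM with the extract and 3.15 CPM in vehicle. The other fucosidase, FUCA1, was at 34.7, 34.1 and 33.5 CPM with the extract and 34.4, 31.3 and 31.6 CPM in vehicle and was not called. By library totals alone, 2 of the 10 were called higher and 1 lower.

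IDS led the lipid and sulfate hydrolases. It codes for iduronate 2-sulfatase, which starts the breakdown of heparan and dermatan sulfate, and measured 42.7, 41.8 and 37.8 CPM in Cinnamomi Cortex at 500 µg/mL and 14.4, 13.3 and 16.4 CPM in vehicle (log2 1.47 ± 0.066, edgeR adjusted p = 1.18e-24). PSAP, the precursor of the saposins that help enzymes reach sphingolipids, measured 560, 569 and 588 CPM with the extract and 339, 351 and 350 CPM in vehicle (log2 0.72 ± 0.046). The groups were apart for both genes. ASAH1, acid ceramidase, and LIPA, the lipase for cholesteryl esters and triglycerides, averaged 187 ± 3.74 and 224 ± 7.44 CPM with the extract and 118 ± 1.77 and 160 ± 8.37 CPM in vehicle (SD, n = 3 each). PPT1, which removes fatty acids from proteins, and SGSH, a heparan sulfatase, were not called, at 0.025 ± 0.043 and -0.032 ± 0.069 on the log2 scale. Those 2 were called lower and the other 4 higher with library totals alone.

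In the proton pump, ATP6V0D1, a subunit of the membrane sector, measured 96.4, 93.3 and 96.4 CPM in Cinnamomi Cortex at 500 µg/mL and 64.7, 60.9 and 61.1 CPM in vehicle (log2 0.62 ± 0.067, edgeR adjusted p = 2.37e-11). ATP6V1H, a regulatory subunit of the outer sector, averaged 32.9 ± 0.66 CPM with the extract and 21.6 ± 1.59 CPM in vehicle, and the accessory gene ATP6AP1 averaged 175 ± 2.67 CPM with the extract and 117 ± 2.74 CPM in vehicle (SD, n = 3 each). For both genes the groups were apart. ATP6V1A, the catalytic subunit, was called at 0.28 ± 0.062 on the log2 scale with TMM and was -0.002 with library totals alone. Its partner ATP6V1B2 was at 83.1, 80.9 and 86.5 CPM with the extract and 83.7, 79 and 82.7 CPM in vehicle and was not called. Of the 5 pump genes, library totals alone left 3 called higher and 1 lower.

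TFE3 and TFEB moved in opposite directions. TFE3 (chrX:49028726-49043486, minus strand) measured 58.4, 61.4 and 58.2 CPM in Cinnamomi Cortex at 500 µg/mL and 36.4, 37.2 and 38.1 CPM in vehicle (log2 0.67 ± 0.057, edgeR adjusted p = 1.56e-14). TFEB (chr6:41683978-41736259, minus strand) measured 6.9, 6.07 and 7.39 CPM with the extract and 10.6, 10.2 and 9.35 CPM in vehicle (log2 -0.57 ± 0.12, edgeR adjusted p = 6.33e-05). In both genes the groups do not overlap, and both calls held with library totals alone. These are RNA levels, and where the proteins were in the cell was not measured.

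**Figure D1:**
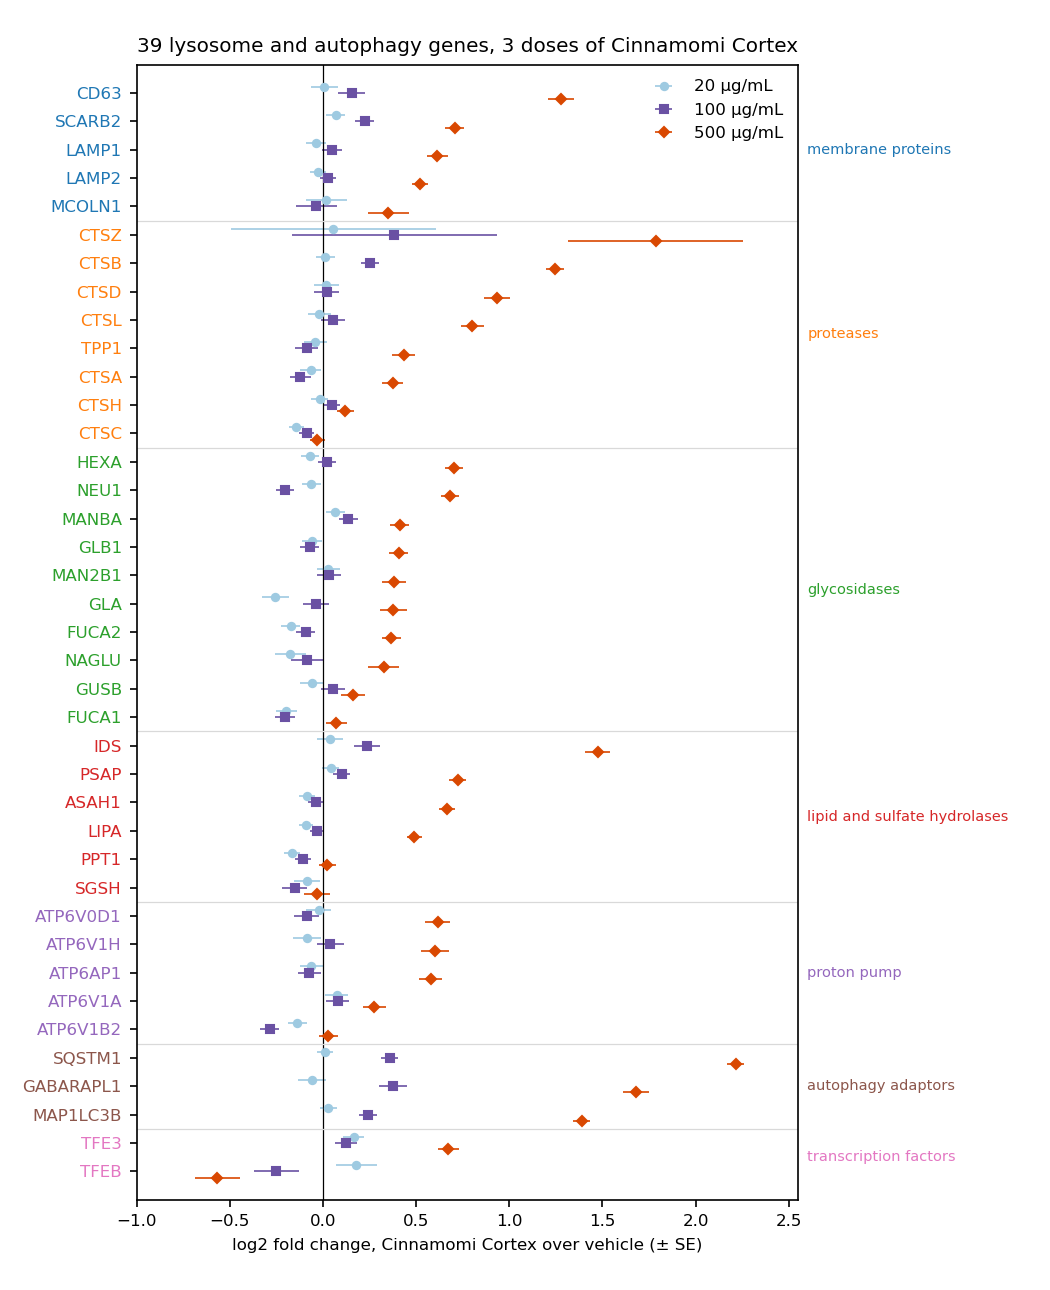
Log2 fold change relative to vehicle of each of the 39 genes (points, with bars of 1 SE) for Cinnamomi Cortex at 20, 100 and 500 µg/mL, grouped by role. Most 500 µg/mL points are right of 0, up to 2.22 for SQSTM1, with TFEB at -0.57, while the points of the lower doses span a narrower range. At 100 µg/mL 7 genes were called higher and 3 lower, and at 20 µg/mL 0 higher and 5 lower.

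Of the genes with CACGTG in the promoter window, 7 of 7 rose in Cinnamomi Cortex at 500 µg/mL relative to vehicle, with a median of 0.62 on the log2 scale. Of those whose window lacked it, 17 of 21 rose, with a median of 0.43, and of the 11 with no promoter entry 9 rose, with a median of 0.52. The 3 autophagy adaptors are among the 21. Of the whole list 33 of 39 genes rose, beside 31.1% of all genes. Genes outside the list were not split by this motif, and a link between motif and change was not tested. Per kilobase of the principal transcript (GENCODE 29), CTSD was the highest of the 39 genes in vehicle at 184 CPM per kb, followed by NEU1 at 177 and CTSA at 168. CTSD was at 351 and NEU1 at 284 CPM per kb in Cinnamomi Cortex at 500 µg/mL. SQSTM1 was at 270 CPM per kb in Cinnamomi Cortex at 500 µg/mL and at 58.1, rank 11, in vehicle. IDS and CTSZ were lowest in vehicle, at 1.93 and 0.13 CPM per kb. The longest principal transcript was used, which has 7619 bases in IDS, and the order depends on this choice. Before division by length, IDS in vehicle (14.7 CPM) was above GABARAPL1 (11.6 CPM), MCOLN1 (10.1 CPM) and TFEB (10 CPM).

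Across the doses of Cinnamomi Cortex, more of the list was called at 500 than at 100 or 20 µg/mL. At 20 µg/mL, 0 of the 39 genes were called higher and 5 lower (FUCA1, FUCA2, GLA, PPT1 and CTSC), with 3.85% of all genes called higher and 3.31% lower. The 5 calls became 0 without vehicle replicate 1, 1 without Cinnamomi Cortex 20 µg/mL replicate 2 and 3 without vehicle replicate 2 or either of the other 20 µg/mL libraries. At 100 µg/mL, 7 genes were called higher and 3 lower, with 10.1% and 9.36% of all genes. By their libraries, 11 genes lay above all vehicle libraries, 11 below all and 17 overlapped them, with 16.8% of all genes above and 17.2% below. The 7 were GABARAPL1 at 0.38 ± 0.073, SQSTM1 at 0.36 ± 0.045, CTSB at 0.26 ± 0.049, MAP1LC3B at 0.24 ± 0.047, IDS at 0.24 ± 0.07, SCARB2 at 0.23 ± 0.051 and MANBA at 0.14 ± 0.051 (edgeR adjusted p = 0.0499) on the log2 scale. All 3 autophagy adaptors were thus called at 100 µg/mL. The 3 lower genes were ATP6V1B2 at -0.28 ± 0.05, NEU1 at -0.20 ± 0.049 and FUCA1 at -0.20 ± 0.056. The counts at 100 µg/mL were 4 higher and 9 lower with library totals alone.

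SQSTM1 measured 178, 177 and 170 CPM at 20, 214, 229 and 225 CPM at 100, and 767, 809 and 841 CPM at 500 µg/mL of Cinnamomi Cortex. GABARAPL1 measured 10.8, 11.8 and 10.8 CPM at 20, 15.1, 14.6 and 15.4 CPM at 100, and 38, 37.3 and 35.8 CPM at 500 µg/mL. NEU1 took another course, with 356, 343 and 341 CPM at 20, 309, 322 and 310 CPM at 100, and 600, 567 and 576 CPM at 500 µg/mL, lowest at the middle dose. TFEB measured 10.6, 11.9 and 11.5 CPM at 20, 7.15, 9.26 and 8.92 CPM at 100, and 6.9, 6.07 and 7.39 CPM at 500 µg/mL, the reverse order. The group means increased with each step of dose in 27 of the 39 genes and decreased with each step in 1, TFEB. The means increased at each step in 9 and decreased at each step in 18 of the 39 genes in Astragali Radix, 6 and 13 in Cnidii Rhizoma, 13 and 7 in Rehmanniae Radix Preparata, 9 and 12 in Samul-tang and 7 and 15 in Sagunja-tang. Such orders of means were not counted over all genes and were not tested, so these counts cannot be read as particular to the list.

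The comparison of 500 with 20 µg/mL uses no vehicle library and stays within 1 set. In Cinnamomi Cortex, 37 of 39 genes were higher at 500 than at 20 µg/mL and 1, TFEB, was lower at -0.74 ± 0.12, with 30.5% of all genes called higher and 31.4% lower. SGSH was not called, at 0.054 ± 0.069. The median was 0.58 on the log2 scale over the list and -0.02 over all genes. FUCA1, PPT1 and ATP6V1B2, which were not called relative to vehicle, were called at 0.27 ± 0.056, 0.19 ± 0.043 and 0.17 ± 0.05 with TMM, while PPT1 and ATP6V1B2 were -0.079 and -0.10 with library totals alone. CTSC was called at 0.11 ± 0.041 with TMM and was -0.16 with library totals alone, and its call was lost without replicate 1 of either dose. The counts were 27 higher and 4 lower with library totals alone, where the median of all genes was -0.288.

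**Figure D2:**
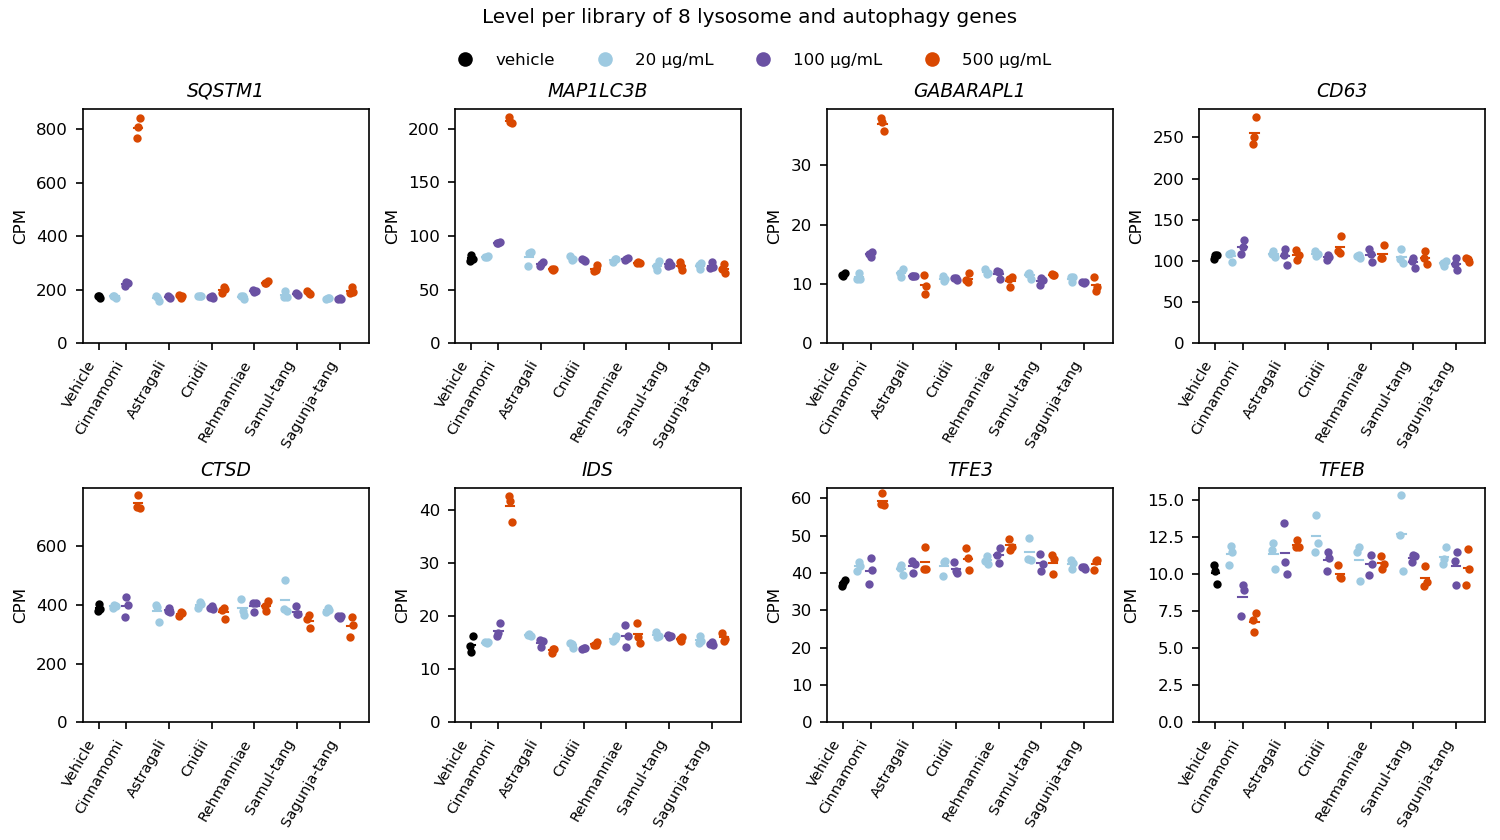
Expression in CPM (TMM-scaled library sizes) of SQSTM1, MAP1LC3B, GABARAPL1, CD63, CTSD, IDS, TFE3 and TFEB in each library of the vehicle group and of the 6 replicated extracts at 20, 100 and 500 µg/mL; each point is 1 library. The Cinnamomi Cortex libraries at 500 µg/mL stand above the other libraries in all panels but that of TFEB, where they are low and 1 library at 100 µg/mL (7.15 CPM) lies among them.

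Astragali Radix shares its set number in the sample codes with Cinnamomi Cortex, and its doses. At 500 µg/mL, 35 of the 39 genes were higher in Cinnamomi Cortex than in Astragali Radix, 1 (TFEB, -0.82 ± 0.12) was lower, and GUSB, SGSH and CTSC were not called. Over all genes 30.9% were called higher and 31.8% lower. SQSTM1 measured 767, 809 and 841 CPM in Cinnamomi Cortex and 180, 170 and 175 CPM in Astragali Radix (log2 2.20 ± 0.046, edgeR adjusted p = 1.49e-37). The difference between the extracts in the change between 20 and 500 µg/mL, tested directly, was above 0 in 31 genes and below 0 in 1, with 25% and 25.9% of all genes. For SQSTM1 this difference was 2.16 ± 0.063 and for TFEB -0.83 ± 0.16 on the log2 scale. The 7 genes for which it was not called were GUSB, SGSH, MCOLN1, CTSC, CTSH, CTSZ and ATP6V1A. Under library totals alone the counts were 27 higher and 3 lower at 500 µg/mL, and 23 higher and 2 lower for the difference in dose response.

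**Figure D3:**
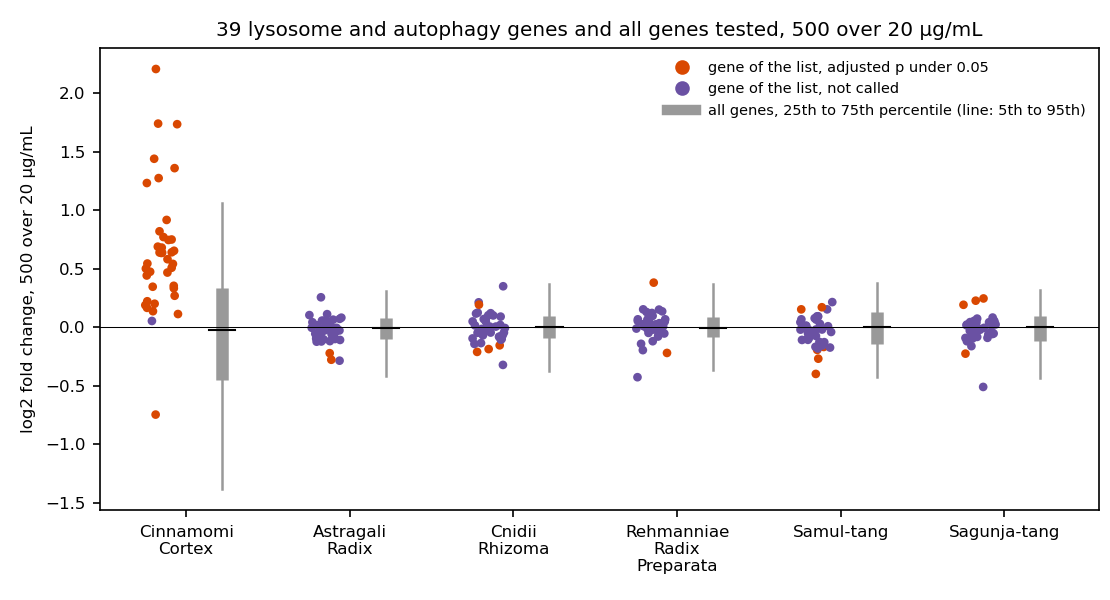
Log2 fold change of the 39 genes (points) at 500 relative to 20 µg/mL for the 6 replicated extracts, beside percentiles of all 16167 genes. The points of Cinnamomi Cortex have a median of 0.58 and reach 2.20 for SQSTM1, while the medians of the other 5 extracts lie close to 0; orange points passed an adjusted p of 0.05.

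The other extracts had 5 to 12 of the 39 genes called at 500 µg/mL relative to vehicle. Astragali Radix had 1 gene higher and 4 lower, with 1.56% of all genes called higher and 1.48% lower. Cnidii Rhizoma had 2 higher and 10 lower, with 6.11% and 5.67%. Rehmanniae Radix Preparata had 2 higher and 3 lower, with 3.87% and 3.58%. Samul-tang had 2 higher and 4 lower, with 7.44% and 6.24%. Sagunja-tang had 2 higher and 10 lower, with 6.76% and 5.52%. In Cnidii Rhizoma and in Sagunja-tang, 25.6% of the list was thus lower. The list's medians were -0.076, -0.05, -0.042, -0.072 and -0.061 on the log2 scale in the order given. Single libraries moved these counts: the 5 calls of Astragali Radix became 2 without vehicle replicate 1 or 2, 1 without its own replicate 2 and 3 without its replicate 3. The 12 of Cnidii Rhizoma became 8 to 11 with each library left out in turn. The 5 of Rehmanniae Radix Preparata became 2 without vehicle replicate 1. The 6 of Samul-tang became 1 without vehicle replicate 1 and 2 without vehicle replicate 2 or its own replicate 3, and the 12 of Sagunja-tang became 6 without vehicle replicate 1 or its own replicate 1 or 3.

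At 20 and 100 µg/mL, Astragali Radix had 0 and 2 calls, with 3.93% and 2.26% of all genes called, and Cnidii Rhizoma had 1 and 2, with 6.49% and 3.58%. Rehmanniae Radix Preparata had 6 and 2 calls at those doses, with 7.18% and 4.17%, Samul-tang had 12 and 7, with 20.7% and 8.08%, and Sagunja-tang had 6 and 4, with 11.4% and 8.85%. Beside the 0 calls at 20 µg/mL of Astragali Radix (edgeR), 10 genes had an unadjusted p under 0.05 and DESeq2 called 3. Leaving out vehicle replicate 1 gave 0 at 100 µg/mL of Astragali Radix, 0 at both doses of Cnidii Rhizoma, and at 20 and 100 µg/mL gave 2 and 1 in Rehmanniae Radix Preparata, 7 and 1 in Samul-tang and 3 and 2 in Sagunja-tang. Leaving out vehicle replicate 2 gave 1 at 100 µg/mL of Cnidii Rhizoma, 2 at 20 µg/mL of Rehmanniae Radix Preparata, 3 at 100 µg/mL of Samul-tang and 2 at 100 µg/mL of Sagunja-tang. Leaving out vehicle replicate 3 gave 2 and 1 at 20 and 100 µg/mL of Astragali Radix, 2 at 20 µg/mL of Cnidii Rhizoma and 1 at 100 µg/mL of Rehmanniae Radix Preparata. Of the extract libraries, leaving out replicate 1 gave 3 and 1 at 20 and 100 µg/mL of Rehmanniae Radix Preparata and, at 100 µg/mL, 0 in Astragali Radix, 0 in Cnidii Rhizoma, 1 in Samul-tang and 2 in Sagunja-tang. Leaving out replicate 2 gave 0 at 20 µg/mL of Cnidii Rhizoma, 1 at 20 µg/mL of Rehmanniae Radix Preparata and, at 100 µg/mL, 0 in Astragali Radix, 1 in Cnidii Rhizoma and 3 in Samul-tang. Leaving out replicate 3 gave 1 and 0 at 20 and 100 µg/mL of Astragali Radix and, at 100 µg/mL, 1 in Cnidii Rhizoma, 1 in Samul-tang and 2 in Sagunja-tang.

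Certain genes lay on the same side of vehicle in all 17 comparisons other than Cinnamomi Cortex at 500 µg/mL, which all share the same 3 vehicle libraries. TFE3 was above vehicle in all 17, at 0.12 to 0.35 on the log2 scale, and was called in 10. Its group means were 40.6 to 47.5 CPM with the extracts and 37.2 ± 0.841 CPM in vehicle (SD, n = 3). FUCA1 was below vehicle in all 17, at -0.29 to -0.076, and was called in 14, with group means of 26.4 to 30.8 CPM with the extracts and 32.4 ± 1.74 CPM in vehicle. FUCA2, ASAH1, ATP6V1B2, NEU1, LIPA, NAGLU and PPT1 were also below vehicle in all 17 and were called in 8, 7, 7, 6, 6, 4 and 4 of them. How many of all genes lay on the same side in all 17 was not counted. The counts without single vehicle libraries are given here for FUCA1 and TFE3 only. The calls rest in part on single vehicle libraries: without vehicle replicate 1, FUCA1 was called in 4 and TFE3 in 4, and without vehicle replicate 2, FUCA1 was called in 13 and TFE3 in 4. When the 20 µg/mL groups of the 6 extracts, averaged, took the place of vehicle, FUCA1 was called in 0 and TFE3 in 1 of the 11 comparisons at 100 and 500 µg/mL. With no filter on low counts, FUCA1 was called in 7 and TFE3 in 4 of the 17. A fit with only the compared groups gave 7 and 8, while DESeq2 gave 13 and 10.

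**Figure D4:**
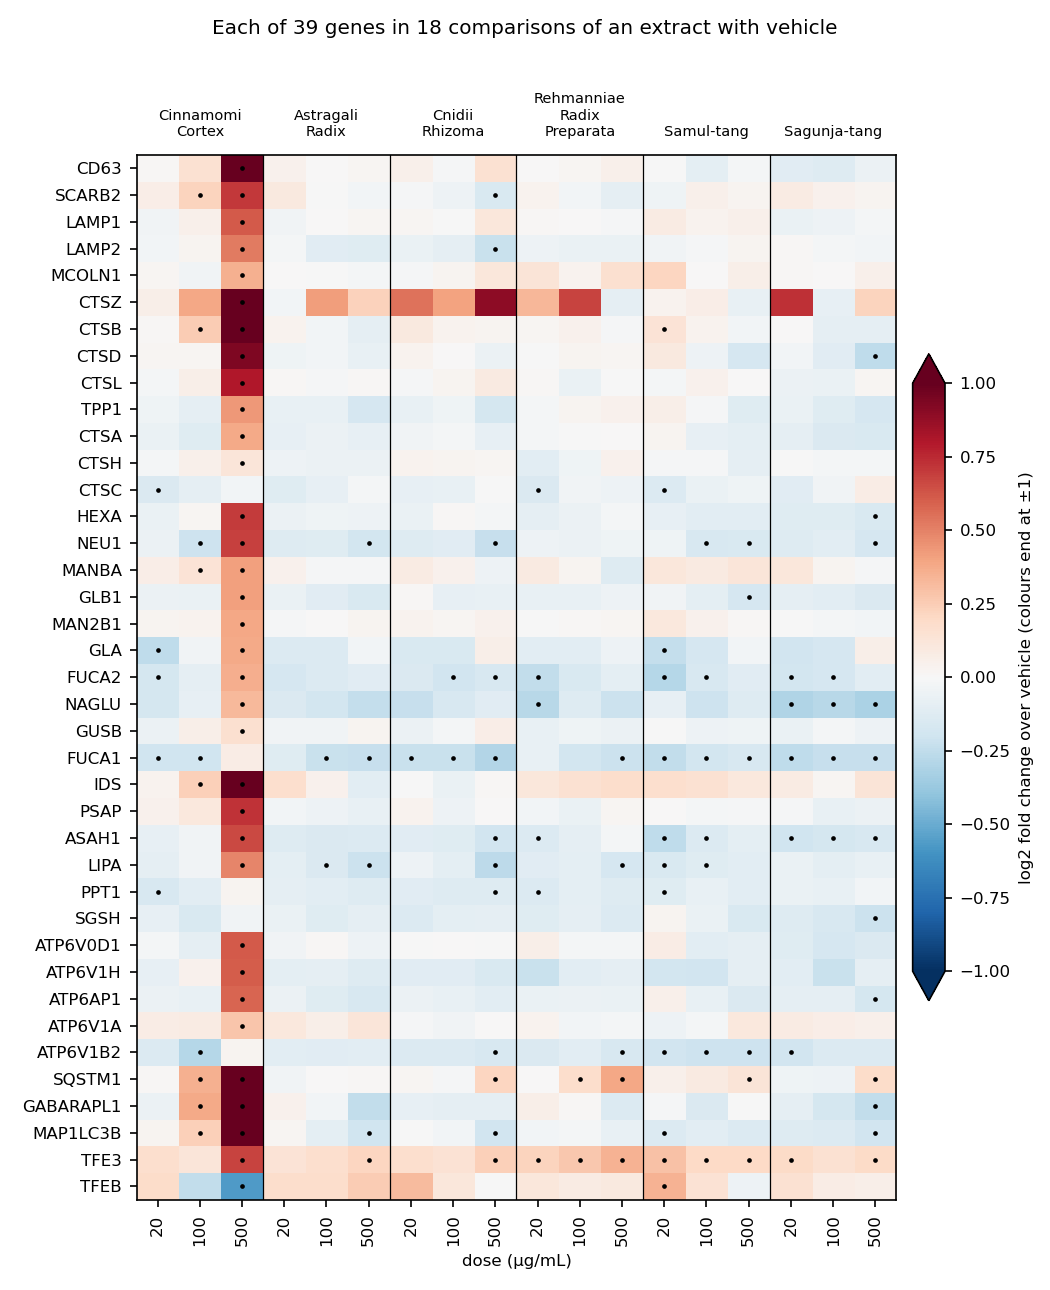
Log2 fold change relative to vehicle of each of the 39 genes (by role) in the 18 comparisons of 6 extracts at 20, 100 and 500 µg/mL; colours end at -1 and 1, and a dot marks a call at an adjusted p under 0.05. The Cinnamomi Cortex column at 500 µg/mL holds 34 dots, and no other column holds more than 12.

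Within each of the other extracts, 500 was also set against 20 µg/mL. SQSTM1 was higher at 500 µg/mL in 3 of them. In Rehmanniae Radix Preparata it measured 225, 224 and 231 CPM at 500 µg/mL and 178, 178 and 166 CPM at 20 µg/mL, with 200, 193 and 194 CPM at 100 µg/mL between them (500 relative to 20, log2 0.38 ± 0.045, edgeR adjusted p = 1.49e-07). In Sagunja-tang it measured 188, 209 and 192 CPM at 500 and 166, 168 and 170 CPM at 20 µg/mL (log2 0.23 ± 0.045, edgeR adjusted p = 0.000795). Both calls held under the 13 other settings tried, each library left out included. In Cnidii Rhizoma it measured 189, 211 and 201 CPM at 500 and 176, 175 and 175 CPM at 20 µg/mL (log2 0.19 ± 0.045, edgeR adjusted p = 0.00739), a call lost without its 500 µg/mL replicate 2 (0.15). In Samul-tang and Astragali Radix the change of SQSTM1 was 0.077 and 0.047 and was not called.

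Beside SQSTM1, few genes of the list differed between 500 and 20 µg/mL in these extracts. Rehmanniae Radix Preparata had 1 gene higher and 1 lower (MANBA, -0.22 ± 0.052), with 0.359% and 0.315% of all genes. Sagunja-tang had 3 higher (SQSTM1, GLA and CTSC) and 1 lower (CTSD, -0.23 ± 0.068), with 2.7% and 2.29%. CTSC there measured 127, 125 and 125 CPM at 500 and 112, 108 and 110 CPM at 20 µg/mL (log2 0.19 ± 0.04, edgeR adjusted p = 0.00177). Cnidii Rhizoma had 1 higher and 3 lower (LIPA, MAP1LC3B and LAMP2), with 1.35% and 1.86%. LIPA measured 128, 140 and 132 CPM at 500 and 155, 149 and 159 CPM at 20 µg/mL of Cnidii Rhizoma (log2 -0.21 ± 0.039, edgeR adjusted p = 0.000557). Astragali Radix had 0 higher (edgeR) and 2 lower (MAP1LC3B, -0.22 ± 0.048, and IDS, -0.28 ± 0.072), with 0.322% and 0.835%. MAP1LC3B measured 69.6, 67.9 and 69.6 CPM at 500 and 72.2, 83.7 and 85.5 CPM at 20 µg/mL of Astragali Radix, so that 1 of the 20 µg/mL libraries lies near the 500 µg/mL group. Samul-tang had 2 higher (FUCA2 and ASAH1) and 4 lower (TFEB, CTSD, ATP6AP1 and CTSB), with 4.48% and 5.4%.

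These small counts moved with single libraries. For Samul-tang the 6 calls became 0 without 20 µg/mL replicate 2, 1 without 500 µg/mL replicate 1 or 3, 10 without 20 µg/mL replicate 1 or 500 µg/mL replicate 2 and 11 without 20 µg/mL replicate 3. In the library of replicate 2 at 20 µg/mL, CTSD measured 486 CPM, against 385 and 380 CPM in the other libraries of that group and 353, 366 and 321 CPM at 500 µg/mL. The 2 calls of Astragali Radix became 0 without 20 µg/mL replicate 2 or 3, and 1 without 20 µg/mL replicate 1 or 500 µg/mL replicate 2 or 3. The 4 of Cnidii Rhizoma became 2 without replicate 1 of either dose, the 2 of Rehmanniae Radix Preparata became 1 without replicate 1 or 3 of either dose, and the 4 of Sagunja-tang became 2 without 500 µg/mL replicate 1 or any 1 of its 20 µg/mL libraries.

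Pairs of extracts from the same set were compared at 500 µg/mL. Between Cnidii Rhizoma and Rehmanniae Radix Preparata, 0 genes were higher and 3 lower in Cnidii Rhizoma (SQSTM1, -0.17 ± 0.045, NEU1 and ASAH1), with 0.353% of all genes called in each direction. These 3 calls became 0 without Rehmanniae Radix Preparata replicate 1 or 2, and 1 without Cnidii Rhizoma replicate 1 or 3 or Rehmanniae Radix Preparata replicate 3, while DESeq2 called 5. Between Samul-tang and Sagunja-tang, edgeR called 0 of the 39 genes, DESeq2 called 0, and 4 had an unadjusted p under 0.05, with 0.507% of all genes called higher and 0.377% lower. In the change between 20 and 500 µg/mL, Cnidii Rhizoma and Rehmanniae Radix Preparata differed in 0 of the 39 genes, with 7 at an unadjusted p under 0.05, and Samul-tang and Sagunja-tang differed in 0, with 2 at an unadjusted p under 0.05 (edgeR; DESeq2 also called 0 in both). Over all genes, 0.068% and 0.142% were called in these tests. A missed threshold does not show that the extracts act alike.

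Other lysosome and autophagy genes were described from 7 lists that share no gene with the 39, with 137 of 143 genes tested. In Cinnamomi Cortex at 500 µg/mL relative to vehicle, 90 of the 137 rose and 20 fell (65.7% and 14.6%, beside 31.1% and 31.6% of all genes), and the median was 0.34 on the log2 scale, beside -0.019 over all genes. Scaled by library totals alone, 48 were called higher and 40 lower, with a median of 0.056, beside 16.1% of all genes higher and 50.4% lower and a median of -0.299. Relative to 20 µg/mL of the same extract, 93 were higher and 18 lower. The genes named here as lower were chosen after their values were seen.

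Among 23 other lysosomal hydrolases 15 rose and 2 fell. GALNS, a sulfatase of keratan sulfate, changed by 0.93 ± 0.065, and ARSB, another sulfatase, by 0.53 ± 0.044. MAN2B2 and GM2A were lower. Among 18 other membrane and transport genes 13 rose and 3 fell. NPC1, which exports cholesterol from the lysosome, changed by 1.28 ± 0.049 (edgeR adjusted p = 3.3e-27), SLC17A5, the sialic acid exporter, by 1.09 ± 0.059, PLEKHM1, a fusion adaptor, by 1.02 ± 0.068 and CTNS, the cystine exporter, by 0.79 ± 0.058. The 3 that fell were the cation channel genes TPCN1 (-0.60 ± 0.063), TMEM175 (-0.62 ± 0.14) and TPCN2 (-0.42 ± 0.12). In the 7 genes of mannose 6-phosphate tagging and sorting, 5 rose, led by the receptor IGF2R at 0.64 ± 0.041, and GNPTAB, part of the enzyme that makes the tag, fell by 0.22 on the log2 scale. Of 12 other proton pump genes 10 rose, led by ATP6V1E1 at 0.71 ± 0.049, and ATP6V0E2 fell. With library totals alone the higher and lower calls were 11 and 6 for the hydrolases, 8 and 3 for membrane and transport, 1 and 3 for sorting and 7 and 3 for the pump.

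Of 34 genes of the core autophagy machinery, 23 rose and 5 fell in Cinnamomi Cortex at 500 µg/mL. WIPI1, a lipid-binding protein of the forming autophagosome, changed by 1.16 ± 0.047 (edgeR adjusted p = 2.79e-26), ATG101 and ATG13, parts of the initiating kinase complex, by 0.90 ± 0.079 and 0.56 ± 0.04, and ATG2A, a lipid transfer protein, by 0.89 ± 0.081. The genes that fell were ATG14, ATG3, ATG4C, STX17 and PIK3R4. Of 14 receptors for selective autophagy other than SQSTM1, 10 rose and 2, TAX1BP1 and WDFY3, fell. The mitochondrial receptors BNIP3 and BNIP3L changed by 1.51 ± 0.068 and 1.64 ± 0.091, and OPTN, optineurin, by 1.18 ± 0.072. Of 29 genes of mTORC1 and its regulators, 14 rose and 6 fell. SESN2, a leucine sensor that restrains mTORC1, changed by 0.87 ± 0.061, the Rag GTPases RRAGA and RRAGD by 0.92 ± 0.068 and 2.25 ± 0.25, and FLCN, folliculin, by 0.57 ± 0.064. With library totals alone the higher and lower calls were 8 and 11 for the machinery, 4 and 4 for the receptors and 9 and 10 for mTORC1.

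**Figure D5:**
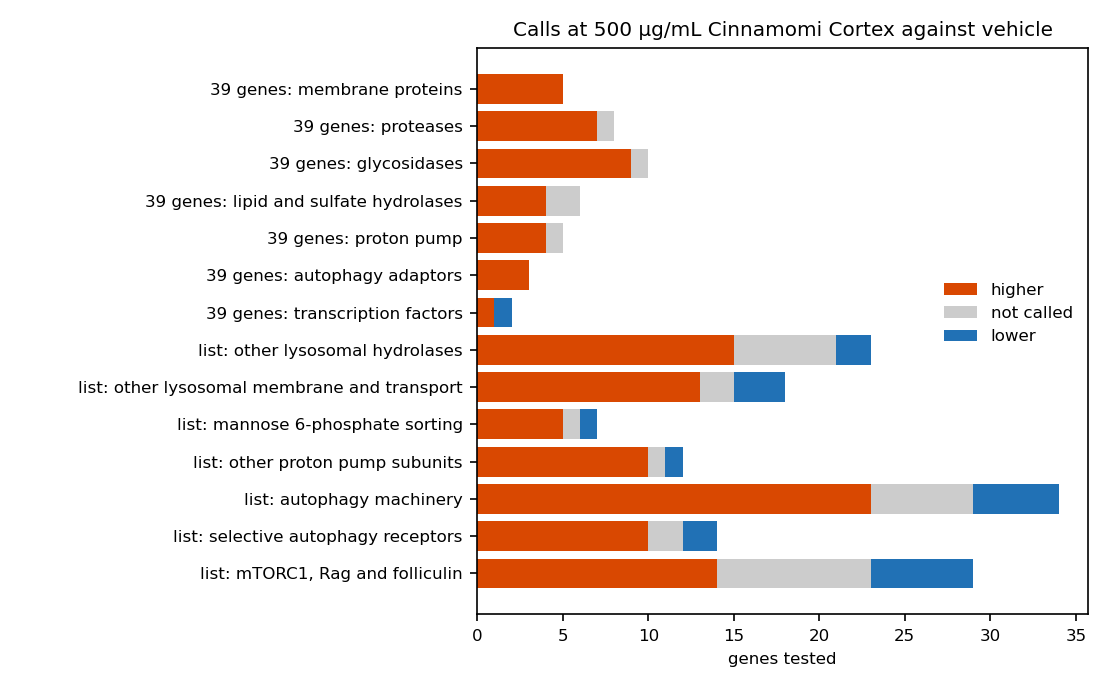
Number of genes called higher, not called or called lower in Cinnamomi Cortex at 500 µg/mL relative to vehicle (edgeR, adjusted p under 0.05, TMM scaling), for the roles of the 39 genes above and for the 7 lists of other lysosome and autophagy genes below. Higher calls make up the largest segment of every bar but that of the transcription factors, where 1 is higher and 1 lower, and the mTORC1 list has 14 higher, 6 lower and 9 not called.

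In the other extracts at 500 µg/mL relative to vehicle, the shares of the 137 genes called were read against those of all genes. Astragali Radix had 0 higher by edgeR and 6 lower (4.38%, beside 1.48% of all genes lower), and 31 of its 137 genes had an unadjusted p under 0.05 in either direction. Cnidii Rhizoma had 3 higher and 11 lower (2.19% and 8.03%, beside 6.11% and 5.67%), and Rehmanniae Radix Preparata had 1 higher and 7 lower (0.73% and 5.11%, beside 3.87% and 3.58%). Samul-tang had 6 higher and 17 lower (4.38% and 12.4%, beside 7.44% and 6.24%), and Sagunja-tang had 5 higher and 15 lower (3.65% and 10.9%, beside 6.76% and 5.52%). In each of the 5 the share of the lists called lower relative to vehicle was above, and the share called higher below, that of all genes. Relative to 20 µg/mL of the same extract this did not hold in all 5. Higher and lower shares were then 0% and 2.92% in Astragali Radix (all genes 0.322% and 0.835%). They were 1.46% and 4.38% in Cnidii Rhizoma (1.35% and 1.86%), and 0% and 0% in Rehmanniae Radix Preparata (0.359% and 0.315%). In Samul-tang they were 1.46% and 8.76% (4.48% and 5.4%), and in Sagunja-tang 3.65% and 5.11% (2.7% and 2.29%). At 20 µg/mL relative to vehicle, lower calls did not outnumber higher ones. The higher and lower calls were 3 and 1 in Astragali Radix, 5 and 4 in Cnidii Rhizoma and 6 and 1 in Rehmanniae Radix Preparata. They were 26 and 16 in Samul-tang and 9 and 9 in Sagunja-tang. Over all genes, 3.93%, 6.49%, 7.18%, 20.7% and 11.4% were called in either direction, in that order. The shares of all genes by direction are not given at 20 µg/mL, so these counts cannot be set against the shares at 500 µg/mL.

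Palmul-tang had 1 library at each dose, so its values have no replicate check and no test. At 20, 100 and 500 µg/mL, 4, 2 and 6 of the 39 genes were above all 3 vehicle libraries, and 22, 26 and 21 were below all 3. Over all genes 30.6%, 31% and 30.8% were above and 32.4%, 34.3% and 31.8% below. The median log2 ratio of the list to the vehicle mean was -0.093, -0.126 and -0.065 at the 3 doses. SQSTM1 was at 161, 171 and 197 CPM at 20, 100 and 500 µg/mL of Palmul-tang and at 168 to 177 CPM in the vehicle libraries. TFE3 was at 42.9, 43.3 and 43.5 CPM in Palmul-tang and 37.2 CPM in vehicle, and FUCA1 at 27.8, 26.3 and 27.5 CPM in Palmul-tang and 32.4 CPM in vehicle. For SQSTM1, the 3 libraries were thus below the 767 CPM of the lowest Cinnamomi Cortex library at 500 µg/mL.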

How the data were processed

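RNA was sequenced with a directional mRNA kit as 100-base read pairs, and FastQC 0.11.9, Trim Galore 0.6.5, STAR 2.7.3a, RSEM 1.3.3 and GRCh38 are named in the submitters' processing notes. The authors deposited expected counts per Ensembl gene, of which 8.58% are not whole. RSEM divides reads between near copies, and whether strand was used is not given in the sources used here. The counts were rounded. Of 270 columns, 60 match these samples and 210 were not used. Groups came from the sample labels.

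Genes were filtered with filterByExpr, scaled by TMM (factors 0.834 to 1.05) and tested with edgeR 4.0.16 (R 4.3.3) in 1 quasi-likelihood fit of 57 libraries in 19 groups, with no covariate. Benjamini-Hochberg adjustment ran within each of 30 contrasts over 16167 genes. The script was tested on simulated data. CPM use TMM-scaled library sizes. Replicates differed by more than sampling noise. Alternatives were DESeq2 1.42.0, size factors, library totals, no filter, a replicate block, fewer groups, another comparator, no mitochondrial genes, no replicate 1 of the set of Cinnamomi Cortex and Astragali Radix, and each library left out.

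The 39 genes, the other lists and the tests were chosen with earlier results of these data known. Any of the 39 could be named, and of each other list up to 4 genes by adjusted p among those called for Cinnamomi Cortex; some of these are not reported here. Gene coordinates are from GENCODE 29.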

Additional observations from a re-analysis of the deposited data

How the results depend on the processing

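For Cinnamomi Cortex at 500 µg/mL relative to vehicle, 32 of the 34 calls held in all 14 settings other than library totals alone, and CTSH and GUSB did not. SQSTM1 ranged over 2.18 to 2.25 and TFEB over -0.78 to -0.49 on the log2 scale. The alternatives gave 9022 values other than those with 1 library left out, of which 253 lost the call, 91 gained it, 34 changed sign with a call in either fit, and 8644 did none of these. With 1 library left out, 306 of 7722 lost the call, 62 gained it, 0 changed sign with a call, and 7354 did none of these. Among values called in neither fit, which are counted in the last group, the sign differed in 288 and in 541, SGSH in Cinnamomi Cortex at 500 µg/mL among them. The causes were not tested.

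With library totals alone (chosen after seeing the data), log2 values changed sign for CTSH -0.16, GUSB -0.12, FUCA1 -0.21, PPT1 -0.25, ATP6V1A -0.002 and ATP6V1B2 -0.25 relative to vehicle. Relative to 20 µg/mL they did so for CTSC -0.16, CTSH -0.13, GUSB -0.045, PPT1 -0.079, SGSH -0.21, ATP6V1A -0.066 and ATP6V1B2 -0.10. Relative to Astragali Radix they did so for CTSH -0.082, PPT1 -0.10, SGSH -0.21, ATP6V1A -0.10 and ATP6V1B2 -0.12, and in the difference in dose response for CTSC -0.25, PPT1 -0.026 and ATP6V1B2 -0.086. With the mean of the 20 µg/mL groups as comparator, signs changed for CTSC at 500 µg/mL of Cinnamomi Cortex (0.093), Astragali Radix (0.10) and Cnidii Rhizoma (0.12), ASAH1 at 100 of Cinnamomi Cortex (0.12), 500 of Rehmanniae Radix Preparata (0.14) and 100 of Samul-tang (0.017), FUCA2 in Cnidii Rhizoma at 500 (0.039) and 100 (0.011) and at 100 of Samul-tang (0.037) and Sagunja-tang (0.031), FUCA1 in Samul-tang at 500 (0.028) and 100 (0.006), and TFE3 in Sagunja-tang at 500 (-0.005).

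The counts of called genes that moved by over 1.5 times are given with the count of the main test in brackets, vehicle being the comparator unless another is named. DESeq2 gave 3 (0) for Astragali Radix at 20, 7 (4) for Sagunja-tang at 100 and 5 (3) for Cnidii Rhizoma relative to Rehmanniae Radix Preparata. Library totals alone gave 0 (2) at 100 of Astragali Radix, 1 (2) at 100 of Cnidii Rhizoma and of Rehmanniae Radix Preparata, 2 (6) and 2 (7) at 500 and 100 of Samul-tang, 2 (4) at 100 of Sagunja-tang, 1 (2) and 2 (4) for 500 relative to 20 in Rehmanniae Radix Preparata and Sagunja-tang, and 1 (3) for Cnidii Rhizoma relative to Rehmanniae Radix Preparata. The mean of the 20 µg/mL groups as comparator gave 0 (2) at 100 of Astragali Radix and of Cnidii Rhizoma, 1 (2) at 100 of Rehmanniae Radix Preparata, 2 (6) and 0 (7) at 500 and 100 of Samul-tang, and 7 (12) and 0 (4) at 500 and 100 of Sagunja-tang. No filter gave 2 (5) at 20 of Cinnamomi Cortex, 0 (2) at 100 of Astragali Radix, 1 (2) and 3 (1) at 100 and 20 of Cnidii Rhizoma, 3 (5), 1 (2) and 2 (6) at 500, 100 and 20 of Rehmanniae Radix Preparata, 2 (6), 1 (7) and 7 (12) at 500, 100 and 20 of Samul-tang, and 1 (2) for 500 relative to 20 in both Astragali Radix and Rehmanniae Radix Preparata. A fit with only the compared groups gave 3 (5) at 20 of Cinnamomi Cortex, 0 (5) and 0 (2) at 500 and 100 of Astragali Radix, 4 (12) and 2 (1) at 500 and 20 of Cnidii Rhizoma, 3 (5) and 2 (6) at 500 and 20 of Rehmanniae Radix Preparata, 2 (6) and 0 (12) at 500 and 20 of Samul-tang, 4 (12) and 7 (4) at 500 and 100 of Sagunja-tang, 0 (2), 0 (4), 1 (2), 0 (6) and 2 (4) for 500 relative to 20 in Astragali Radix, Cnidii Rhizoma, Rehmanniae Radix Preparata, Samul-tang and Sagunja-tang, and 0 (3) for Cnidii Rhizoma relative to Rehmanniae Radix Preparata. Without the replicate 1 libraries of the set of Cinnamomi Cortex and Astragali Radix, the counts were 2 (5) at 20 of Cinnamomi Cortex and 0 (2) at 100 of Astragali Radix.

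With each library left out in turn, the counts at 500, 100 and 20 µg/mL relative to vehicle ranged over 32 to 34, 8 to 10 and 0 to 4 in Cinnamomi Cortex, 1 to 6, 0 to 2 and 0 to 2 in Astragali Radix, 8 to 11, 0 to 2 and 0 to 2 in Cnidii Rhizoma, 2 to 5, 1 to 2 and 1 to 6 in Rehmanniae Radix Preparata, 1 to 5, 1 to 6 and 7 to 12 in Samul-tang, and 6 to 13, 2 to 5 and 3 to 7 in Sagunja-tang. For 500 relative to 20 they ranged over 37 to 38, 0 to 2, 2 to 4, 1 to 2, 0 to 11 and 2 to 3 in that order of extracts. For Cinnamomi Cortex relative to Astragali Radix they ranged over 34 to 36 and for the difference in dose response over 31 to 33, for Cnidii Rhizoma relative to Rehmanniae Radix Preparata over 0 to 4 and 0 to 0, and for Samul-tang relative to Sagunja-tang over 0 to 1 and 0 to 0.

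The labels do not say whether the replicate numbers pair the samples, and the main fit did not pair them. Same-numbered libraries of a set had median correlations of deviations of 0.0336, 0.0297 and 0.00715 in the 3 sets (range -0.118 to 0.182). Differently numbered libraries had medians of -0.00564, -0.017 and 0.0051. For vehicle with the extracts the medians were 0.00951 for the same number and -0.00534 for different numbers. When the block was added to the fit (replicate block), the count for Cinnamomi Cortex at 500 µg/mL stayed 34. The vehicle differences also hold differences between sets, and few reads limit CTSZ.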
